A study of Mus musculus with 4 samples.

Results

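The genes described here are 9 complement genes of the mouse colon, taken by name: C2, C3, C4b, Cfb, Cfi, Serping1, Cd55, C3ar1 and C5ar1. The array held 15 probes for them among 56605 probes in all. Of the 9 genes, 8 had a probe that passed the filter on dim signals, within 19325 genes tested. Cfi did not pass.

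Whole colon of C57BL/6 mice was taken on day 5 of a DSS experiment. Dextran sulphate sodium (DSS), a polymer given in drinking water, damages the lining of the colon and is a standard way to cause colitis. Every mouse of both groups had received it. Control mice were Junbfl/fl, so their Junb alleles were floxed but not deleted. Mutant mice were Junbfl/flCd4-Cre, in which Cre recombinase driven by Cd4 sequences deletes Junb in cells of the T cell lineage, and all other colon cells keep the gene. Age was not given in the sources used here. Total RNA of 2 control and 2 mutant colons was hybridised to 4 one-colour Agilent arrays. The arrays were made because DSS colitis was worse in the mutant mice, per the series' description, and the comparison here is whether colon transcripts of complement differed between the genotypes.

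Complement is a cascade of secreted proteins that tags microbes and damaged cells and calls in phagocytes. The classical route (C1q, C1r, C1s, C4, C2), the lectin route and the alternative route (factor B, factor D, properdin) each build an enzyme that cleaves C3, the protein on which all routes meet. The released fragments C3a and C5a act on the receptors C3aR and C5aR1 of myeloid cells. Most plasma complement comes from the liver, but gut epithelium, stromal cells and macrophages also transcribe complement genes, and inflammatory cytokines are known to raise several of them.

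The probes below are some of those compared within a gene, for C3, C4b, Cfb and Cd55. They are the array's own 60-base oligonucleotides in the sense of the transcript, 5′ to 3′, in lower case throughout, with positions on mm9 as the array design gives them. All lie on the minus strand.
C3 probe 2, chr17:57343678-57343737: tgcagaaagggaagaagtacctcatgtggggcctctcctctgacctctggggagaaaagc
C4b probe 1, chr17:34866361-34866420: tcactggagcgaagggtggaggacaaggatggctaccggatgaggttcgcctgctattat
Cfb probe 1, chr17:34993502-34993858: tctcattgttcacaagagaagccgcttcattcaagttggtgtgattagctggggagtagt
Cfb probe 2, chr17:34994617-34994676: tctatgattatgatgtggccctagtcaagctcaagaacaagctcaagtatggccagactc
Cd55 probe 1, chr1:132336925-132344911: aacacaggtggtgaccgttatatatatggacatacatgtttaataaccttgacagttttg
Cd55 probe 4, chr1:132353415-132353474: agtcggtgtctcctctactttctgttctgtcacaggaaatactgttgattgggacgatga
Cfb probe 1 and Cd55 probe 1 span 357 and 7987 bases of the genome with 60 bases of sequence, so each bridges at least 1 intron. The members C2, Cfb, C4b and C3 hold 7 of the 15 probes on chromosome 17, and C2 and Cfb are next to each other there. No mm9 gene annotation was used here, so exon and untranslated region are not assigned to the probes.

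Each array had 27935 to 29090 probes well above background and 0 saturated spots. All 8 markers of colon epithelium were measured, with Muc2 between 8.38 and 8.59 on the log2 scale used throughout, where 0 is the array's 75th percentile. Junb itself had 4.23 and 4.39 in control colons and 4.44 and 4.47 in mutant colons, which checks nothing about a deletion limited to T cells. Xist (-0.55 and -0.77 on the replicate 1 arrays, -6.13 and -6.43 on the replicate 2 arrays) showed replicate 1 of both genotypes to be female, and Eif2s3y (-6.08 and -6.20, against 0.19 and -0.11) showed replicate 2 to be male. The difference within each same-numbered pair is therefore given beside the difference of means. Of 8 liver markers, Alb, Apoa1, Ahsg and Fgb were well above background on 0 arrays, Apoh on 2, and Apoa2, Ttr and Serpina1a on all 4; of the 4 tested 1 was higher and 3 lower, with a median of -0.29, and without scaling between arrays all 4 were lower.

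No complement member passed the test between genotypes. In limma with Benjamini-Hochberg adjustment over 19325 genes, 0 of the 8 tested members were called, where 0% of all genes were called, and the smallest adjusted p among the members was 0.529. At an unadjusted p under 0.05 there was 1 member, C2, against 9.29% of all genes (5.31% higher and 3.98% lower in mutants), so the members' share is near that of genes at large. By probe, 1 of 14 had such a p, against 8.22% of all probes. The components C2, C4b, C3 and Cfb, the inhibitor gene Serping1 and the receptor gene C5ar1 were each higher in the mutants, and Cd55 and C3ar1 were lower, by differences that did not pass. Without scaling between arrays C5ar1 was on the lower side too. The median log2 difference of the 8 members was 0.21, beside 0.02 over all genes, and 0.14 under quantile normalization. Without control replicate 1 it was -0.02. In RNA of whole tissue, fewer cells of a type and less RNA per cell cannot be told apart.

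**Figure D1:**
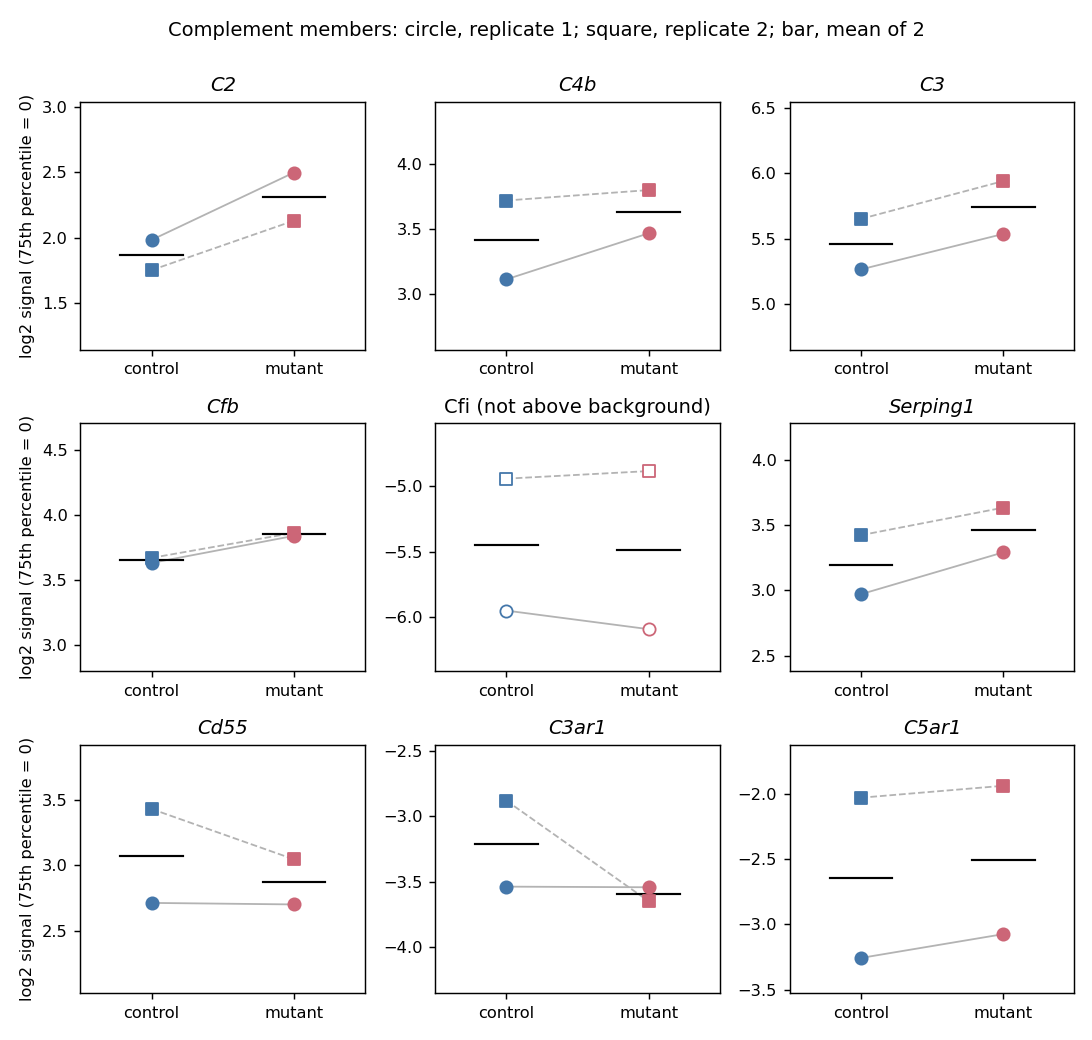
Log2 signal of the 9 complement members on each array, from the probe that represents each gene. Circles are replicate 1, squares replicate 2, bars the mean of 2 arrays, lines join same-numbered arrays, and every panel spans the same log2 range. Open symbols mark Cfi, which was not well above background. Controls and mutants overlap except in C2, Cfb and, by a margin of under 0.01, C3ar1.

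C2 encodes the serine protease of the classical and lectin C3 convertase. Its single probe (chr17:34999575-34999634, mm9) had an intensity of 1304 and 1106 (controls) and 1757 and 1175 (mutants). After scaling to the 75th percentile these were log2 signals of 1.98 and 1.75 against 2.50 and 2.13. Both mutant arrays lay above both control arrays. The mutant to control ratio of C2 was 1.36, with a 95% confidence interval of 1.01 to 1.84. As a log2 difference this was 0.45 ± 0.17 (SE, limma unadjusted p = 0.0457, adjusted p = 0.529). The replicate 1 pair gave 0.52 and the replicate 2 pair 0.38. Of the 13 alternatives run, only another background correction or scaling could turn the direction of C2. It stayed higher in these, at 0.39 (normexp background correction), 0.40 (quantile normalization), 0.53 (median scaling) and 0.26 (no scaling between arrays). The rest kept its means or left out 1 array of groups that do not overlap. Without control replicate 2 the difference was 0.33, and without mutant replicate 1 it was 0.26. The unadjusted limma p was above 0.05 under normexp (0.0512), quantile normalization (0.0846), no scaling (0.300) and no intensity trend (0.0760).

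C4b encodes the C4 protein, whose large fragment binds to surfaces and holds C2. Probe 2 (chr17:34865367-34865426), the brighter, had 3.11 and 3.72 in control colons and 3.47 and 3.80 in mutant colons. The groups overlapped, with control replicate 2 between the mutant arrays. The difference was 0.22 ± 0.24 (SE, adjusted p = 0.794), and probe 1, printed above, gave 0.25 ± 0.24. The pairs gave 0.35 and 0.08. Without control replicate 1 the direction turned, to -0.086. C4a is a near-identical copy of C4b, so signal of either gene may reach probes of the other.

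C3 is the most abundant complement protein of plasma and the target of all convertases. Probe 1 (chr17:57343416-57343475) read 12675 and 16505 (controls) and 14419 and 16488 (mutants) as intensity, which is 5.26 and 5.65 against 5.54 and 5.94 on the log2 scale. Within each genotype the replicate 2 array was the higher, by 0.39 and 0.41, and the groups overlapped. The genotype difference of 0.28 ± 0.20 (SE, adjusted p = 0.676) was smaller than those gaps. Both pairs were alike, at 0.27 and 0.29, and probe 2 gave 0.31 ± 0.20. The 95% confidence interval ran from 0.853-fold to 1.73-fold. The difference was 0.03 under quantile normalization, 0.09 without control replicate 1 and 0.08 without mutant replicate 2.

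Cfb encodes factor B, the protease of the alternative C3 convertase. It had the tightest replicates of the members. Probe 1 read 3.63 and 3.67 in control colons and 3.84 and 3.86 in mutant colons, and probe 2 read 1.24 and 1.21 against 1.46 and 1.42. The groups did not overlap on either probe, and the pairs agreed within 0.02 on probe 1, at 0.21 and 0.19. The difference was 0.20 ± 0.10 (SE, a ratio of 1.15, adjusted p = 0.592), with a 95% confidence interval of 0.966-fold to 1.37-fold. It rests on the scaling between arrays. Unscaled intensities of probe 1 were 4088 and 4182 (controls) and 4448 and 3904 (mutants), a log2 difference of 0.01. Leaving out the scaling moved the median of all genes from 0.02 to -0.17, so relative to all genes Cfb stayed higher.

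**Figure D2:**
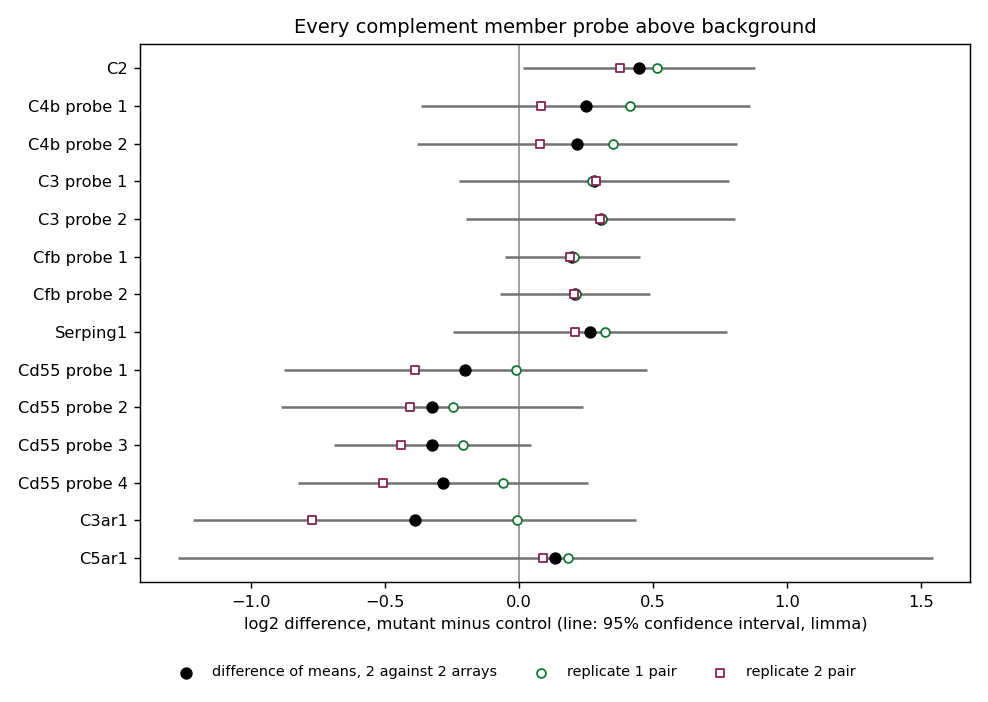
Log2 difference between mutant and control for each of the 14 probes of complement members well above background on at least 2 arrays. Black points are differences of means with limma's 95% confidence interval, and open symbols are the differences within the replicate 1 and replicate 2 pairs. All intervals but that of C2 include 0, and all 4 probes of Cd55 lie below 0.

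Among the regulators, Serping1 encodes C1 inhibitor, which inactivates C1r, C1s and the lectin route proteases. Its probe (chr2:84605663-84605722) read 2.97 and 3.42 in control colons and 3.29 and 3.63 in mutant colons, so the groups overlapped. The difference was 0.27 ± 0.20 (SE, adjusted p = 0.699), with 0.32 and 0.21 in the pairs. It was 0.04 without control replicate 1 and 0.09 without mutant replicate 2. Cfi encodes factor I, which cuts C3b and C4b with the help of cofactors. None of the 4 arrays had its probe (chr3:129578111-129578170, plus strand) well above background, with intensities of 5.33 and 10.7 (controls) and 4.55 and 9.10 (mutants). Neither a fold nor a test is given for it.

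Cd55 encodes decay-accelerating factor, a membrane protein that takes C3 convertases apart on the body's own cells. It was the member with most probes, and all 4 had lower means in the mutants. Probe 1, which represents the gene, read 2.71 and 3.43 in control colons and 2.70 and 3.05 in mutant colons. The difference was -0.20 ± 0.27 (SE, adjusted p = 0.835). Control replicate 2 was the highest array, and the pairs gave -0.01 and -0.39. Probe 3 (chr1:132335716-132335775) read 1.64 and 1.57 (controls) and 1.43 and 1.13 (mutants), without overlap, and gave -0.32 ± 0.14 (limma adjusted p = 0.636 over 28897 probes). Probe 2 lies inside the span that probe 1 bridges and is assigned to another transcript of the gene. It was dim, at -2.79 and -2.75 against -3.04 and -3.16, and gave -0.32 ± 0.22. Probe 4 read 1.41 and 1.99 against 1.35 and 1.49, and gave -0.28 ± 0.21. Without control replicate 2 the probes parted: probes 2 and 3 stayed at -0.30 and -0.36, while probes 1 and 4 went to 0.16 and 0.0084. The direction of probe 1 thus rested on that 1 control array.

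The receptor genes gave dim signals. C3ar1, the receptor of C3a, had a single probe (chr6:122798222-122798281) with intensities of 28.4 and 44.7 in control colons and 26.7 and 21.4 in mutant colons. Control replicate 2 stood above the other arrays, which lay between -3.65 and -3.54 on the log2 scale. The difference was -0.39 ± 0.34 (SE, adjusted p = 0.735), with -0.0047 in the replicate 1 pair and -0.77 in the replicate 2 pair. It was -0.06 without control replicate 2 and -0.03 after normexp background correction. C5ar1, the receptor of C5a on neutrophils and macrophages, read -3.26 and -2.03 (controls) and -3.07 and -1.94 (mutants). Replicate 2 was above replicate 1 by 1.23 and 1.14, and the genotype difference was 0.14 ± 0.56 (SE, adjusted p = 0.953). Its direction turned without control replicate 1 (-0.48) and without mutant replicate 2 (-0.43). The file's position for this probe (chr7:16832094-16832135) covers 42 of its 60 bases, and its 95% confidence interval of 0.406-fold to 2.98-fold leaves a wide range of differences undetectable.

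Across the members, the genotype difference had the same sign in both pairs for 8 of 8, against 65.4% of all genes. There were 6 members higher in both pairs (36.3% of all genes) and 2 lower in both (29.1% of all genes). In these 2, Cd55 and C3ar1, the replicate 1 pair differed by only -0.012 and -0.0047. The groups did not overlap for 3 of 8, against 43.2% of all genes, and 2 of these 3 were higher in mutants, against 25.7%. For 5 of the 8 members (C3, C4b, Serping1, Cd55 and C5ar1), replicate 2 was above replicate 1 in both genotypes by more than the genotypes differed, and 27.1% of all genes had such a gap in one direction or the other. C2 was the member with replicate 2 below replicate 1 in both genotypes, by -0.23 and -0.37. The replicate number goes with sex and with whatever else the numbered mice shared, and these cannot be told apart.

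Further genes of the pathway lay on both sides. A list of 51 further complement gene names had 46 on the array, of which 32 were tested. Of these 13 were higher and 19 lower in the mutants, the median difference was -0.08, and 0 passed the adjusted threshold, against 0% of all genes. At an unadjusted p under 0.05 none was higher, against 5.31% of all genes, and 3 were lower, Cfd, Colec10 and C4bp, against 3.98% of all genes. Without control replicate 2 the median was 0.18. Cfd encodes factor D (adipsin), the protease that activates factor B and a product of adipocytes. It read 3.36 and 2.54 in control colons and 1.09 and 0.74 in mutant colons, a difference of -2.04 ± 0.30 (SE, limma adjusted p = 0.417). Both mutant arrays were below both controls, and a second Cfd probe gave -2.04 ± 0.28. Of 5 adipocyte markers tested 4 were lower, with a median difference of -0.72 and none past the adjusted threshold, and Plin1 was well above background on 1 array. The median log2 level of the list was 1.68 and 2.15 in control colons and 0.66 and 1.73 in mutant colons. Their part in the result was not tested.

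Colec10, a collectin of the lectin route, differed by -0.71 ± 0.17 (adjusted p = 0.418). C4bp, the C4b-binding protein that serves factor I as a cofactor, differed by -0.58 ± 0.15 (adjusted p = 0.428), with -0.38 and -0.77 in the pairs. The fluid-phase regulator Clu differed by -0.41 ± 0.20 and did not pass. The C1q genes C1qa (-0.17 ± 0.31), C1qb (-0.14 ± 0.29) and C1qc (-0.13 ± 0.26), made mainly by macrophages, were lower by less than their errors. The genes of the C1 proteases had higher means in both pairs: C1ra differed by 0.47 ± 0.28, C1rb by 0.44 ± 0.30, C1s1 by 0.27 ± 0.24 and C1s2 by 0.23 ± 0.23, and none passed. C1ra and C1rb, like C1s1 and C1s2, are close copies, so their signals may not be separate. The second C5a receptor gene, C5ar2, differed by 0.55 ± 0.46. Of the membrane regulators, Daf2, a second decay-accelerating factor gene (-0.17 ± 0.22), and Cd59a, which blocks the membrane pore (-0.26 ± 0.14), were lower. Cr1l, which encodes the convertase regulator Crry, was 0.12 ± 0.11 higher, and none of these passed. Cd59b was well above background on 1 array and Cd46 on 0. The start of the pore, C5, is encoded by Hc in the mouse. Like C8a, C8b and C9, Hc was well above background on 0 arrays. Of the other pore genes, C7 (-0.011 ± 0.32) and C8g (0.12 ± 0.23) were well above background on all 4 arrays and C6 (-0.38 ± 0.45) on 2, and none passed.

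**Figure D3:**
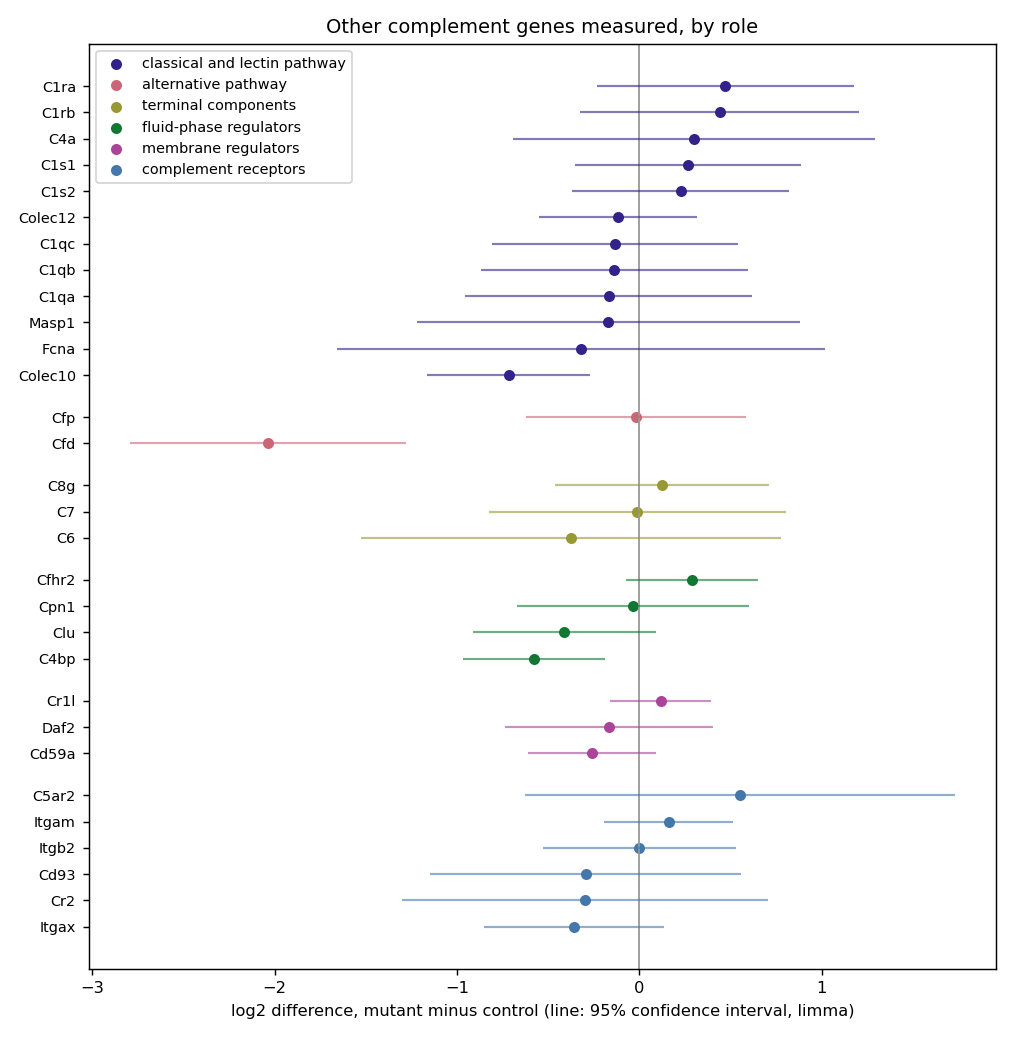
Log2 difference between mutant and control for 30 further complement genes by role, with limma's 95% confidence interval. Of the 32 genes tested, Fcnb is not drawn because its interval runs from -5.66 to 5.97, and 1 other is not reported here. Cfd lies apart at -2.04, and most other intervals include 0.

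Cytokines and transcription factors known to induce complement genes were listed beside the members. All 12 genes of that list had higher means in the mutants, with a median of 0.58, and 11 were higher in both pairs. Under quantile normalization 11 were higher and without scaling between arrays 10. None passed the adjusted threshold, and 8 had an unadjusted p under 0.05, where 5.31% of all genes were higher at that p. Ifng, the gene of interferon gamma, read -3.21 and -3.85 (controls) and -1.47 and -1.89 (mutants). The cytokine genes Il1b (1.66 ± 0.32), Il6 (1.95 ± 0.59) and Tnf (0.86 ± 0.20) were higher by differences above the range of the members. Ifng and Il6 were dim in control colons, and their differences depended on the background correction. After normexp correction Ifng went from 1.85 to 0.94 and Il6 to 1.16, while Il1b had 1.51 and Tnf 0.73. The transcription factor genes Cebpd (0.72 ± 0.17), Irf1 (0.43 ± 0.12) and Stat3 (0.25 ± 0.10) differed by amounts nearer to that of C2. Without scaling between arrays, Irf1 and Stat3 had 0.24 and 0.07, neither past the unadjusted threshold. Irf1 had 0.18 under quantile normalization and Stat3 had 0.11 as the mean of its probes, also not past it. The difference between the lists was not tested.

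**Figure D4:**
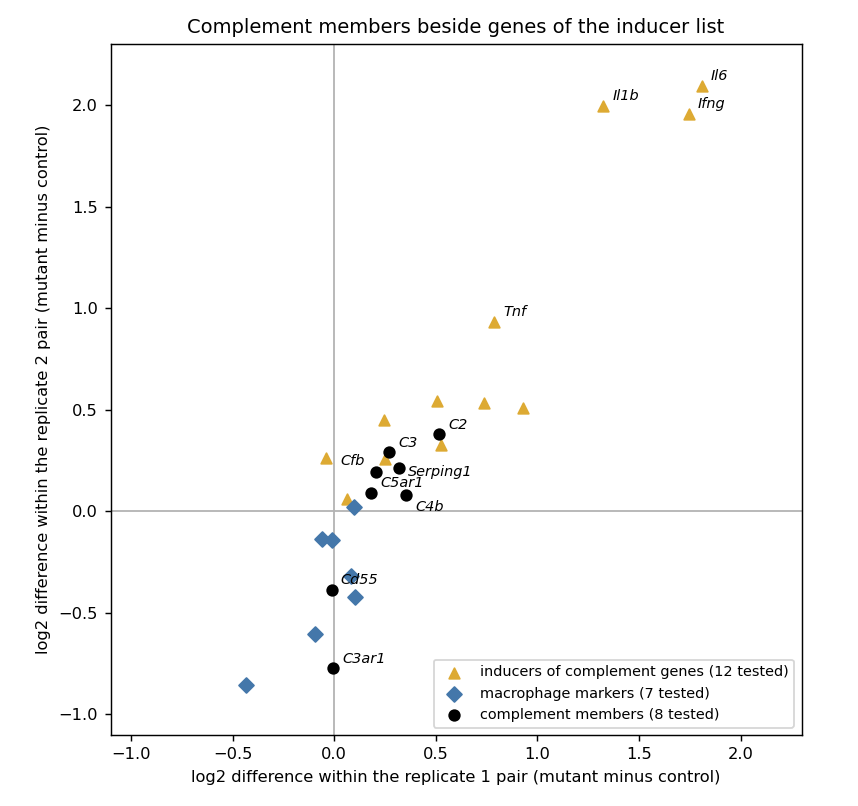
Log2 difference between mutant and control in the replicate 1 pair (x axis) and the replicate 2 pair (y axis), for complement members, genes of the inducer list and macrophage markers. Ifng, Il1b, Il6 and Tnf lie far to the upper right, the members lie between -0.77 and 0.52 on both axes, and C3ar1 and Cd55 below 0 on the replicate 2 axis.

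Markers of cells that carry or make complement gave these values. Of 7 macrophage markers tested 1 was higher and 6 lower, with a median of -0.12. The median log2 level of the list was 0.60 and 0.72 in control colons and 0.50 and 0.25 in mutant colons, and Mrc1 had an unadjusted p under 0.05 (-0.64 ± 0.23). Their median was -0.01 in the replicate 1 pair and -0.32 in the replicate 2 pair, where C3ar1 and Cd55 differed by -0.77 and -0.39. All 7 fibroblast markers had lower means (median -0.28; 6 of 7 with median scaling), and so did all 5 endothelial markers (median -0.39). All 6 smooth muscle markers had lower means, with a median of -0.63, and all 6 had an unadjusted p under 0.05. All 8 T cell markers had lower means, with a median of -0.67 and 5 at that p, and with median scaling 7 of the 8. Cd8a, 1 of the 5, was well above background on 2 control and 0 mutant arrays. It passed the filter through the controls alone, so its lower mean is tied to the filter. None of the genes in these lists passed the adjusted threshold. Of 6 neutrophil markers tested 3 were higher and 3 lower, with a median of 0.95, and with median scaling 5 were higher. Among them S100a8 (2.24 ± 0.78) and S100a9 (2.24 ± 0.88) had higher means, none past the adjusted threshold. Ly6g (-0.14 ± 0.30) and Csf3r (-0.02 ± 0.13) differed by less than their errors. Epithelial markers had a median of 0.04, which was -0.13 under quantile normalization. The part of these cells in the members' values was not tested.

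C2 had the largest difference of the members. The named genes most like it, by the root mean square distance of centred log2 signals over the 4 arrays, were Rad18 (0.0195), Ect2 (0.0262) and Ripply2 (0.0291), out of 14094 genes compared. With 4 arrays such closeness is common, and 136 genes lay within 0.1.

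C3 is shown with the 250 bases before its transcription start because regulators that can act there were measured. RefSeq promoters (GRCm38.p6) were found for 4 of the 9 members, C3, C3ar1, C5ar1 and Cd55. Capitals mark matches, on either strand, to a C/EBP motif (TTGCNNAA) and an NF-kappaB motif, GGGA and CC with any 4 bases between.
C3, chr17:57228137-57228386, minus strand: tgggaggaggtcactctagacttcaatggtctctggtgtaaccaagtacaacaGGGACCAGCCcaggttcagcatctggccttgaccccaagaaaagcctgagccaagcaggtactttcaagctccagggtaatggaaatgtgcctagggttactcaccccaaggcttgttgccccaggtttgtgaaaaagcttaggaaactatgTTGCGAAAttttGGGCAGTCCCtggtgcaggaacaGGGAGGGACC
The C/EBP match begins 45 bases before the start, and 9.6% of 32851 promoters hold one in this window. NF-kappaB matches begin 197, 33 and 10 bases before it, and 17.6% of promoters hold at least 1, that of Cd55 among them. None of the 4 promoters held a GAS motif (TTCNNNGAA) or an ISRE (GAAA and GAAA with any 2 bases between), present in 7.0% and 3.0% of promoters. An AP-1 motif (TGANTCA, 6.7% of promoters), of the kind JunB proteins bind, was found in C3ar1 only, 22 bases before its start. These are matches of letters and show no binding. Beside them, Cebpd was higher by 0.72 and Cebpb by 0.63 ± 0.28, and Rela and Nfkb1 differed by 0.06 ± 0.12 and 0.11 ± 0.13, while C3 differed by 0.28.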

How the data were processed

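Sample titles gave the groups and the replicate numbers. The deposited values are linear spot intensity. Agilent Feature Extraction 11.5.1.1 is named in the submitters' processing notes, and its processed signal has had background removed, with no normalization between arrays recorded. Flags for background, saturation and outliers were used as yes or no values, per the file headers. The number of arrays limits the precision. The p-values rest on the spread between the 2 arrays of each group, moderated over all genes. By Xist and Eif2s3y each group held a female and a male. That spread therefore includes whatever goes with sex and replicate number.

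The log2 processed signal minus each array's 75th percentile was averaged over a probe's spots without outlier spots, and 11 probes lacking such a spot on some array were dropped. A probe had to be well above background on 2 or more of the 4 arrays, and the brightest one represented its gene, without regard to genotype. Differences, mutant minus control, came from limma 3.58.1, run under R 4.3.3 (lmFit, eBayes with intensity trend, two-sided, no block) and are given ± the moderated standard error (2 against 2 arrays). Adjusted p-values are Benjamini-Hochberg over all genes, or over all probes where said. An exact permutation test of 2 against 2 arrays could not pass 0.05. The fit was tested on simulated data.

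Members, lists and rules were chosen with earlier results of these data known. Named were the members, complement genes and inducers at an unadjusted p under 0.05, the main parts of the pathway, and marker genes only beside short counts; other genes (Fcnb, the C1r and C1s genes, C5ar2, C6, C7, C8g, Cebpb, Rela, Nfkb1, Muc2, Plin1, neutrophil and liver markers) were chosen after their values were seen. A few list members counted with their lists are not reported here by name. Same-numbered arrays deviated together (r = 0.24 over 19325 genes), but the labels do not say that a number marks a shared litter or day. Alternatives were another background correction, scaling, filter, probe rule or variance model, a replicate block, and leaving out each array.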

Additional observations from a re-analysis of the deposited data

Results flagged for a closer look

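Of the 32 other complement genes tested, 20 had the same sign in both pairs, against 65.4% of all genes. In the rest, the replicate 1 (female) pair and the replicate 2 (male) pair went opposite ways, and 4 of them are given here. The difference between pairs was not tested, since each is 1 array against 1. C1qa differed by 0.12 and -0.46 in the pairs, a gap of -0.58. C1qc differed by 0.12 and -0.39, a gap of -0.52. C7 differed by -0.15 and 0.12, a gap of 0.27. Fcnb, a ficolin gene, read -6.10 and -1.39 in control colons and -0.84 and -6.34 in mutant colons, with a gap between pairs of -10.2, and was well above background on 2 arrays only. The pairs also went opposite ways, again untested, in the transcription factor gene Nfkb1, with a gap of 0.31. So they did in the marker genes Ly6g (-0.42), Csf3r (0.26) and Muc2 (0.26). Further genes of the marker lists went opposite ways too, some of them by larger gaps.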

How the results depend on the processing

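No member passed the adjusted threshold under any alternative run. The 4 arrays shared 1 slide and 1 scan, so the slide block could not be fitted. The count of members at an unadjusted p under 0.05, 1 in the report, was 0 after normexp correction, quantile normalization, without the intensity trend, and without scaling between arrays (chosen after the data were seen), 3 with the replicate block, and 0 to 2 without 1 array. With the replicate block, 46 genes in all passed the adjusted threshold and 3382 the unadjusted one, among them 1 (Cfd, adjusted p = 0.0416) and 7 other complement genes. The block changed no other adjusted call among the members, the other complement genes, Ifng, Il1b, Il6, Tnf, Cebpd, Irf1 and Stat3. Adjusted values with the block were not looked at for the marker genes, Cebpb, Rela and Nfkb1. Without the filter on dim probes 3607 genes passed the unadjusted threshold, 5 of them other complement genes. Leaving out 1 array gave 864 to 2167 genes (lowest without mutant replicate 1), 2 to 6 other complement genes, and a median of other complement genes from -0.24 to 0.18. The median of the members ranged from -0.02 to 0.40 without 1 array (control replicate 1 and control replicate 2). Without 1 array, C4b ranged from -0.086 (without control replicate 1) to 0.52, Cd55 from -0.56 to 0.16 (without control replicate 2), and C5ar1 from -0.48 (without control replicate 1) to 0.75, with -0.43 without mutant replicate 2. C5ar1 was -0.052 without scaling between arrays. The cause was not tested. C3ar1 and C5ar1 gave dim signals, though well above background on all 4 arrays.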
